A study of Schizosaccharomyces pombe with 8 samples.

Results

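Most mitochondrial ribosomal proteins are encoded by nuclear genes, and in the fission yeast Schizosaccharomyces pombe many of those genes carry short introns. The introns described here are the annotated introns in the genes whose symbols begin with mrpl, mrps, mrp or rsm and a digit, with at least 10 spliced plus unspliced reads in every library. The rule names 60 genes. Of these, 36 have no annotated intron in the table, among them mrp1 and rsm1, which by their annotation do not encode mitochondrial ribosomal proteins. The table lists 35 introns for the others, and 34 of them in 24 genes passed the read minimum, of 3352 annotated introns tested in all. The one that did not pass was intron 2 of mrp17, with 6 to 24 reads per library, while the introns of mrpl27 and rsm10, the least covered that passed, had 12 in WT replicate 1. By the annotated products and symbols, 19 introns in 13 genes belong to the large (54S) subunit and 15 introns in 11 genes to the small (37S) subunit. All 34 lie in the coding region.

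The mitochondrial ribosome makes the few proteins encoded by mitochondrial DNA, most of them core subunits of the respiratory chain and the ATP synthase. Its nuclear-encoded proteins are translated in the cytosol and imported, and those whose genes carry introns depend on a spliced mRNA. The spliceosome assembles anew on every intron. The U2 snRNP with its SF3a and SF3b subcomplexes binds the branch site, the tri-snRNP then joins, and after both steps of splicing the mRNA is released and the remaining complex is taken apart.

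Poly(A) RNA was sequenced from 6 temperature-sensitive strains and from WT (strain ED666), all grown at 25 °C and shifted to 37 °C for 15 min, WT included. The mutants were prp10-R379H in an SF3b subunit, sap114-A152V in an SF3a subunit, prp1-G705D in a tri-snRNP protein, cwf22-G191D in a spliceosomal protein, prp22-V801M;G917R in the helicase that releases the mRNA, and ntr1-W597R in a factor of spliceosome disassembly. Each mutant strain had 1 library and WT had 2. The labels do not say that the WT libraries came from separate cultures, so the spread between them may be technical. In tests that use the mutants together, the spread that p-values measure also holds the differences between the 6 strains. A strain cannot be told apart from its single library.

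The table gives, for each intron and library, the reads that were spliced and the reads that were unspliced. The unspliced share is the unspliced reads as a percentage of both, and the log2 odds is the log2 of unspliced over spliced reads. Reads at all annotated introns ranged from 420473 in WT replicate 1 to 1858792 in ntr1. Reads at the 34 introns ranged from 1746 to 6851 in the same libraries, with a median per intron of 48.5 and 190.5. The 95% Wilson interval of a single share had a median width between 11.4 percentage points in WT replicate 2 and 19.4 in prp10. Intervals and limits cover counting error only. In total reads per intron, the WT libraries differed beyond sampling noise over all tested introns, with a chi-square of 6776 on 3351 degrees of freedom. Over the 34 introns the chi-square was 46 on 33. The unspliced share was not part of this comparison, and the WT libraries were counted as 2 samples.

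The sequences of 12 introns among those the results turn on are given first, and are shown from the 5′ to the 3′ splice site. The capitals mark the first 6 bases of the 5′ splice site, the branch-site pentamer where one was found, and the last 3 bases. The pentamer is the last match, within 60 nt of the 3′ splice site and on the intron's own strand only, to CTAAC or to its variant with a final T, CTAAT, or to the same pair with G in the middle, written CTGAC and CTGAT. A match that ends in C can share that base with the next one, and only the last is marked. Positions are those of the deposited table (build ASM294v2 per the submitters' processing notes). The letters are from RefSeq's ASM294v3, in which all 35 introns of these genes match annotated introns at both ends.
The introns with the largest and the smallest rise in percentage points come first.
mrpl8 intron 1 (II:341520-341582, minus strand): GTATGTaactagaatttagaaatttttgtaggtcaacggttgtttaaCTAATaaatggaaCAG
mrpl23 intron 1 (II:4219924-4219965, plus strand): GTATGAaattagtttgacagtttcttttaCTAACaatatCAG
mrp11 intron 1 (I:389565-389616, plus strand): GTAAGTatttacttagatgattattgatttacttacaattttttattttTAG
The next intron had no unspliced read in either WT library.
mrpl27 intron 1 (I:1433154-1433198, minus strand): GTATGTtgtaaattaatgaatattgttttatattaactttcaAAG
The following had the lowest changes relative to the typical intron on the log2 odds scale, and mrpl44 intron 1 and mrpl51 intron 2 passed the test of that difference.
mrpl44 intron 1 (II:4126073-4126145, plus strand): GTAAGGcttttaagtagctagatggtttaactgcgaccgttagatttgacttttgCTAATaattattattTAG
mrpl51 intron 1 (II:1700148-1700238, plus strand): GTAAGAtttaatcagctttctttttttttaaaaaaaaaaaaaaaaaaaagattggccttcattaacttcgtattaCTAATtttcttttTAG
mrpl51 intron 2 (II:1700402-1700497, plus strand): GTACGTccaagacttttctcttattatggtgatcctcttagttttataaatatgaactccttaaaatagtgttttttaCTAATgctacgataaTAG
The next is the one intron that would leave the reading frame open if kept.
mrpl3 intron 1 (II:4010170-4010208, minus strand): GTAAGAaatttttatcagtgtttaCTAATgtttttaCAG
The last 4 form 2 pairs from 1 transcript each whose introns differed within the same libraries.
rsm27 intron 1 (II:3072630-3072694, plus strand): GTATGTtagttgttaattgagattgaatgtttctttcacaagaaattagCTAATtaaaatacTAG
rsm27 intron 2 (II:3072733-3072785, plus strand): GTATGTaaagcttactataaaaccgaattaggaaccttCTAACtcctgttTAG
rsm19 intron 1 (I:386044-386106, minus strand): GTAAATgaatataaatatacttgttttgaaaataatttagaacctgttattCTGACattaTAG
rsm19 intron 2 (I:385888-385937, minus strand): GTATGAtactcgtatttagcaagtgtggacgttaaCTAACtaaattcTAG

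Among the 34 introns, the 5′ splice site was GTATGT in 9, GTAAGT in 8 and GTAAGA in 6. GTAAGA began 17.6% of these introns and 6.83% of all tested introns. A branch pentamer was CTAAC in 12, CTAAT in 12 and CTGAC in 4. None of the 4 words was found in 6 introns, or 17.6%, against 22.7% of all tested introns, and mrp11 intron 1 and mrpl27 intron 1 are among those 6. The 3′ splice site was TAG in 24 introns. Lengths ran from 39 to 429 nt with a median of 64.0 nt, beside 59.0 nt over all tested introns.

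Every one of the 34 introns was retained more in the mutants than in WT. The median unspliced share was 66.1% ± 12.8 (SD, n = 6 strains) in the mutants and 6.77% ± 0.878 (SD, n = 2 libraries) in WT. All 34 rose in edgeR's quasi-likelihood test of the 6 mutants against WT, with a largest Benjamini-Hochberg adjusted p of 0.00473, beside 95.6% of all tested introns. In all 34, each of the 6 mutant shares lay above both WT shares, beside 97% of all tested introns. The count is therefore close to the background of the whole table. The rise ranged from 33.8 to 78.0 percentage points, with a median of 56.7, beside 55.1 over all tested introns. On the log2 odds scale the fitted median rise was 4.86, beside 5.06 over all tested introns. It was 4.76 with the 2 introns that lacked an unspliced WT read set to their lower bounds. No test was made between the 34 introns as a list and the rest. With 1 WT library left out, 33 of 34 introns rose. Without WT replicate 2, intron 1 of mrpl51 had an adjusted p of 0.117.

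**Figure D1:**
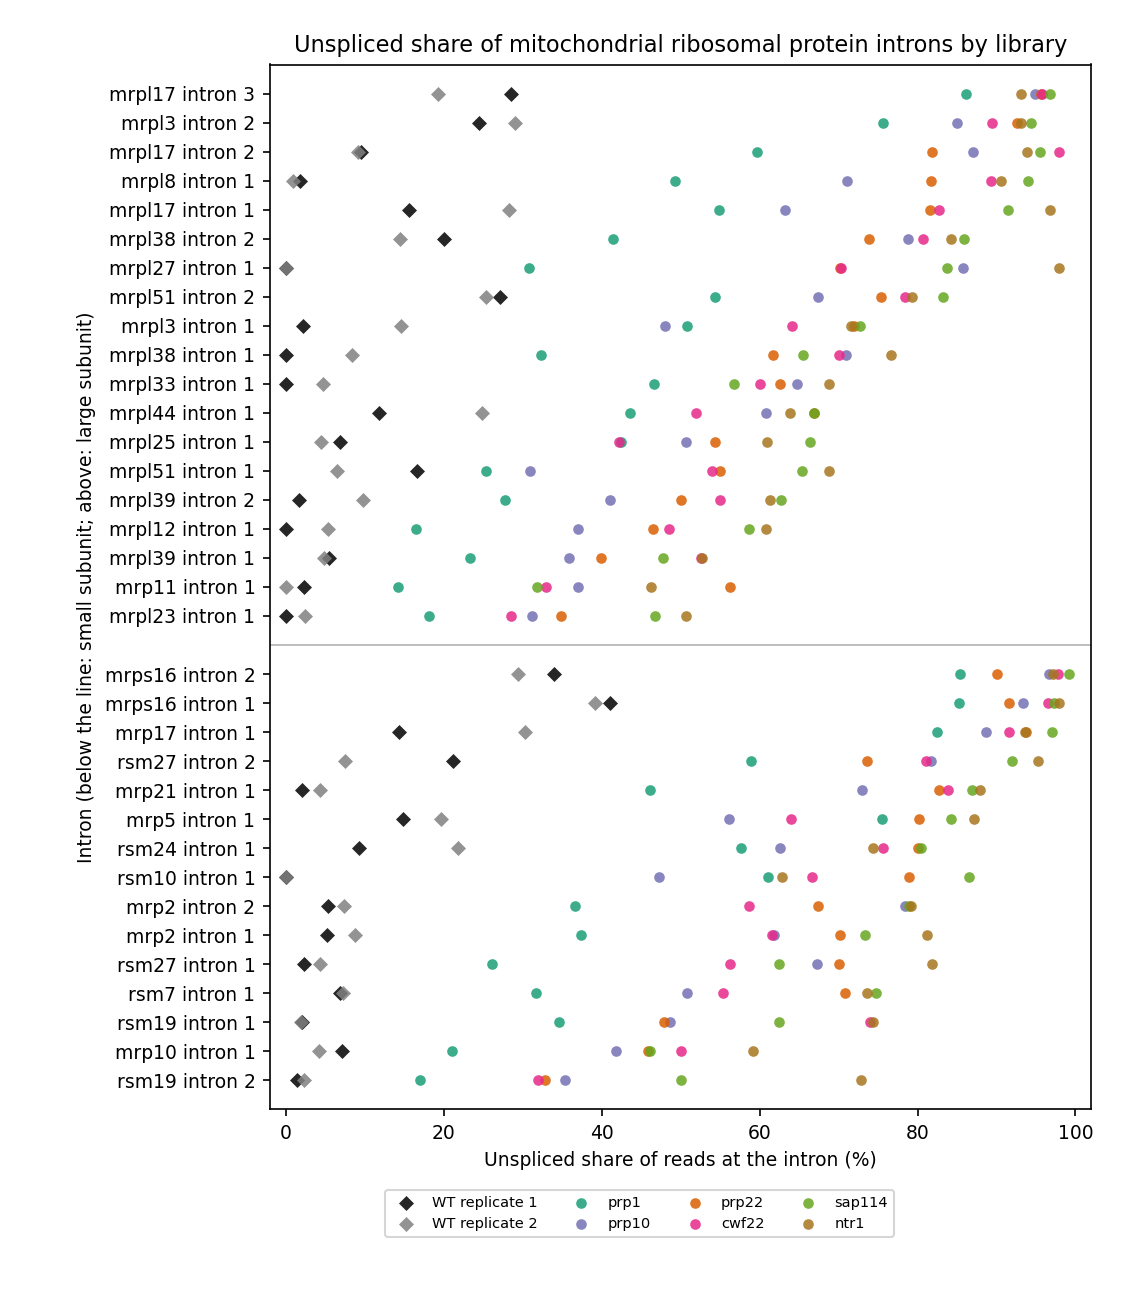
Unspliced share of reads (%) at each of the 34 introns, with 1 point per library; diamonds are the 2 WT libraries and coloured circles the 6 mutants, large subunit above the line and small subunit below. All mutant points lie to the right of both WT points of the same intron, and prp1 is the leftmost mutant in 30 of 34 introns.

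The large-subunit introns had a median share of 62.5% ± 10.2 (SD, n = 6) in the mutants and 6.91% ± 2.02 (SD, n = 2) in WT. The small-subunit introns had 68.5% ± 13.2 in the mutants and 7.08% ± 0.331 in WT. The SDs overlap, but they are spreads over libraries that both subunits share and do not measure the difference between them. The small-subunit median was lower than the large-subunit median in prp10, at 62.64% against 63.16%. It was higher in cwf22 (66.67% against 64.15%), prp22 (73.65% against 66.88%) and prp1 (46.09% against 42.48%). It was also higher in sap114 (80.49% against 66.87%) and ntr1 (81.19% against 71.56%). The difference was not tested.

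In the large subunit, the single intron of mrpl8 had the largest rise in percentage points. The gene encodes bL17m, the mitochondrial form of bacterial ribosomal protein L17. Its unspliced share was 1.85% in WT replicate 1 and 0.862% in WT replicate 2. In the mutants it was highest in sap114, at 94.04%, followed by 90.6% in ntr1, 89.3% in cwf22, 81.7% in prp22, 71.1% in prp10 and 49.3% in prp1. All mutants stood far above WT, with prp1 the lowest. Each WT value rests on 1 unspliced read, with 95% Wilson intervals of 0.328 to 9.77% and 0.152 to 4.72%. The class mean went from 1.36% ± 0.70 (SD, n = 2) to 79.3% ± 16.8 (SD, n = 6), a rise of 78.0 percentage points and of 8.51 ± 1.27 (SE) in log2 odds (edgeR adjusted p = 5.13e-07).

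The introns of mrpl17, which encodes mL46, gave the second largest rise. Its intron 2 had 9.52% and 9.09% unspliced reads in the WT libraries. The mutants had 59.6% in prp1, 81.8% in prp22, 87.0% in prp10, 93.8% in ntr1, 95.6% in sap114 and 97.9% in cwf22. These WT shares rest on 21 and 22 reads. Its intron 3 went from 28.6% and 19.2% in WT to between 86.2% in prp1 and 96.8% in sap114. Its intron 1 went from 15.6% and 28.3% in WT to between 54.8% in prp1 and 96.7% in ntr1. The mutant mean was 78.4% ± 16.3 at intron 1, 86.0% ± 14.2 at intron 2 and 93.7% ± 3.90 at intron 3 (SD, n = 6).

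The intron of mrpl27, a gene annotated as a large-subunit protein, had no unspliced read in 12 and 23 WT reads. A count of 0 in these 35 reads allows a WT share of up to 8.57%. The mutants ranged from 97.9% in ntr1 over 85.7% in prp10, 83.7% in sap114, 70.3% in cwf22 and 70.2% in prp22 down to 30.8% in prp1. By the mean log2 odds of the mutants, the odds of the unspliced form were at least 37.9-fold higher than in WT. The WT limit used a floor of 3 reads over the WT pair. The bound is for the mutants' mean and does not hold for each mutant, with prp1 the lowest. This intron had the largest rise in percentage points in prp10 and in ntr1.

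Intron 2 of mrpl3, which encodes mL44, a relative of the RNase III family, was already unspliced in 24.5% and 29.0% of WT reads. It reached 75.6% in prp1, 84.96% in prp10, 89.5% in cwf22, 92.6% in prp22, 93.1% in ntr1 and 94.4% in sap114. The rise of the class mean was 61.6 percentage points (adjusted p = 2.80e-05).

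At the other end stood the intron of mrpl23, which encodes uL13m. It had 0 of 65 unspliced reads in WT replicate 1, which allows up to 4.62%, and 2.40% in WT replicate 2. The mutants had 18.2% in prp1, 28.6% in cwf22, 31.2% in prp10, 34.9% in prp22, 46.7% in sap114 and 50.7% in ntr1. In 5 of 6 mutants more reads were spliced than unspliced, and no mutant overlapped WT. The class mean rose from 1.20% ± 1.70 to 35.04% ± 12.02, or by 33.8 percentage points (edgeR adjusted p = 6.04e-05).

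The intron of mrp11, which encodes uL10m, the homologue of the bacterial protein that anchors the L12 stalk, had the second smallest rise, of 35.2 percentage points. It was unspliced in 2.35% and 0% of WT reads, and in 14.2% in prp1, 31.8% in sap114, 33.0% in cwf22, 37.0% in prp10, 46.3% in ntr1 and 56.2% in prp22. Here prp22 was the highest mutant, which was so for 2 of the 34 introns. The intron of mrpl12, which encodes the stalk protein bL12m itself, rose from 2.69% ± 3.80 to 44.7% ± 16.3. Intron 1 of mrpl39 (bL33m) rose from 5.15% ± 0.467 to 42.0% ± 11.4 and intron 1 of mrpl51 (mL43) from 11.6% ± 7.19 to 49.9% ± 17.9.

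In the small subunit, the intron of mrp21 had the largest rise. It encodes bS21m. WT had 2.08% and 4.35%, and the mutants had 87.9% in ntr1, 86.8% in sap114, 83.9% in cwf22, 82.7% in prp22, 72.9% in prp10 and 46.1% in prp1. The other strains lie close together and prp1 lies well below them but above WT. The class mean rose by 73.5 percentage points (edgeR adjusted p = 1.22e-06).

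The 2 introns of mrps16, annotated as mitochondrial ribosomal protein S16, had the highest mean WT shares of the 34. Intron 1 had 41.0% and 39.2% in the WT libraries, from 139 and 278 reads, and intron 2 had 34.0% and 29.4%. In the mutants intron 1 ranged from 85.2% in prp1 to 97.9% in ntr1 and intron 2 from 85.3% in prp1 to 99.1% in sap114. Among all tested introns of a library, intron 1 held on average percentile 94.3 in WT and percentile 95.5 in the mutants, so its rank was high in both. With 429 and 266 nt, these are also among the longest of the 34.

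The intron of mrp17, which encodes bS6m, had 14.3% and 30.3% in WT, from only 14 and 33 reads. It had 82.5% in prp1 and 96.99% in sap114 as the lowest and highest mutants, with a rise of the mean of 68.9 percentage points. Intron 2 of rsm27 (mS33) had 21.2% and 7.46% in WT and between 59.0% in prp1 and 95.3% in ntr1 in the mutants. The intron of rsm10, which encodes uS10m, had no unspliced read in 28 WT reads, which allows up to 10.7%, and between 47.2% in prp10 and 86.5% in sap114 in the mutants. By the mean log2 odds of the mutants, its odds were at least 17.96-fold higher than in WT. This bound too is for the mutants' mean and does not hold for each mutant.

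Intron 2 of rsm19, which encodes uS19m, a protein of the small-subunit head, had the lowest mutant mean of the small-subunit introns, at 40.01% ± 19.2 (SD, n = 6). It had 1.45% and 2.29% in WT and 17.0% in prp1, 31.9% in cwf22, 32.9% in prp22, 35.4% in prp10, 50% in sap114 and 72.9% in ntr1. It rose by 38.2 percentage points in the class mean. Of the 34 introns, 11 were mostly unspliced in all 6 mutants, and 0 were mostly spliced in all 6. These counts were not made over all tested introns, so they are not read as particular to the 34.

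Relative to the typical intron, few of the 34 stood apart. For this comparison each library's log2 odds were centred on that library's median over all tested introns. On this scale the median change was -0.10 over the 34 introns and 0.15 over all tested introns. Only mrpl8 intron 1 was called higher, by 3.68 ± 0.855 (SE) in log2 odds (edgeR adjusted p = 0.00255), or 1 of 34, beside 7.82% of all tested introns. Lower calls numbered 2 of 34, mrpl44 intron 1 with -2.26 ± 0.548 (edgeR adjusted p = 0.00386) and mrpl51 intron 2 with -1.92 ± 0.464 (edgeR adjusted p = 0.00383), beside 12.7% of all tested introns. Both lower introns were partly unspliced in WT. The mrpl44 intron, in the gene of mL53, had 11.9% and 24.8% in WT, and 43.6% in prp1, 52.0% in cwf22, 60.9% in prp10, 63.9% in ntr1, 66.9% in sap114 and 66.9% in prp22. Intron 2 of mrpl51 had 27.1% and 25.4% in WT and between 54.3% in prp1 and 83.3% in sap114 in the mutants. In percentage points these rises were 40.7 and 46.7. Intron 1 of mrpl51 had a relative change of -1.74 and an edgeR adjusted p of 0.0648. The calls rest on the WT pair. Without WT replicate 2 the adjusted p was 0.158 for mrpl8 and 0.274 for mrpl44, and for mrpl51 intron 2 it was 0.0656 and 0.0592 without WT replicates 1 and 2.

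**Figure D2:**
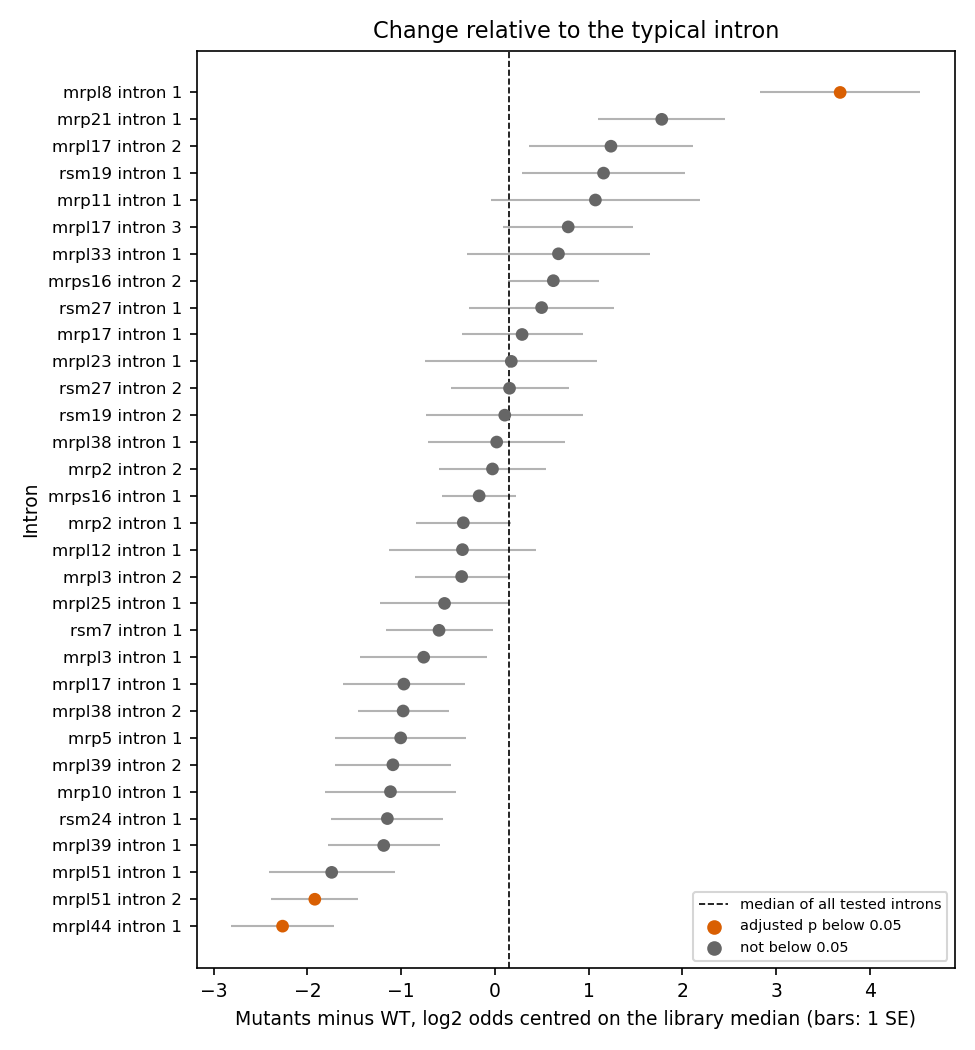
Change of the 6 mutants against WT in log2 odds after centring each library on its median, for 32 introns; bars are 1 SE, the dashed line is the median of all tested introns, and orange marks an edgeR adjusted p below 0.05. Only mrpl8 intron 1 stands above and mrpl44 intron 1 and mrpl51 intron 2 stand below with such a p; the introns of mrpl27 and rsm10, without an unspliced WT read, are left out because their fitted values are no bounds.

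The strains differed in overall level in these introns as in the whole table. The median share of the 34 introns was 43.0% in prp1, 62.9% in prp10, 65.4% in cwf22, 70.5% in prp22, 76.8% in sap114 and 77.9% in ntr1. Over all tested introns it was 38.9%, 63.0%, 68.1%, 67.9%, 79.0% and 81.5% in the same strains. WT had 6.15% and 7.39%, beside 5% and 5.88% over all introns. The tri-snRNP mutant prp1 was the lowest mutant in 30 of 34 introns, and ntr1 was the highest in 18 and sap114 in 13. More than 50% of the reads were unspliced at 33 introns in ntr1, 29 in sap114, 28 in cwf22, 27 in prp22, 23 in prp10 and 13 in prp1. Of all 3352 tested introns, the counts in the same strains were 2954, 2816, 2442, 2551, 2238 and 1098.

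Against WT, all 34 introns rose in each strain by edgeR with Benjamini-Hochberg adjustment. The shares of all tested introns that rose were 86.2% in prp1, 91.8% in prp10, 93.7% in cwf22, 95.7% in prp22, 96.6% in sap114 and 97.4% in ntr1. Since no mutant strain has a second library, the error in these tests comes from the difference between the WT libraries. With limma on the log2 odds, 26 of the 34 introns rose in prp1, beside 76.1% of all tested introns, and 33 in prp10, beside 90.6%. All 34 rose by limma in cwf22, prp22, sap114 and ntr1, beside 93.5%, 94.3%, 95.9% and 96.2% of all tested introns. The intron with the largest rise in percentage points was mrpl8 intron 1 in prp22 (80.3) and sap114 (92.7), mrpl17 intron 2 in cwf22 (88.6), mrpl17 intron 3 in prp1 (62.2), and mrpl27 intron 1 in prp10 (85.7) and ntr1 (97.9).

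After centring, no intron of the table was called in any strain against the other 5 mutants, by edgeR or by limma (0 of the 34 introns in each strain, background 0%). At an unadjusted p below 0.05 in edgeR there were 3 of the 34 in ntr1, 2 in prp1, 2 in prp22, 1 in cwf22, 1 in prp10 and 0 in sap114. The shares of all tested introns at that level were 6.83% in ntr1, 11.2% in prp1, 3.01% in prp22, 1.25% in cwf22, 3.43% in prp10 and 5.85% in sap114. Intron 1 of mrp5, in the gene of uS5m, had the largest difference in prp1. Its share was 75.6% in prp1 and 56.1% in prp10, 63.9% in cwf22, 80.2% in prp22, 84.3% in sap114 and 87.1% in ntr1. It is thus one of the 4 introns in which prp1 was not the lowest mutant, and its centred difference was 1.97 in log2 odds (edgeR adjusted p = 0.386). The 95% Wilson intervals of the prp1 and prp10 shares, 65.7 to 83.3% and 43.3 to 68.2%, overlap in part, which is no test of their difference.

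**Figure D3:**
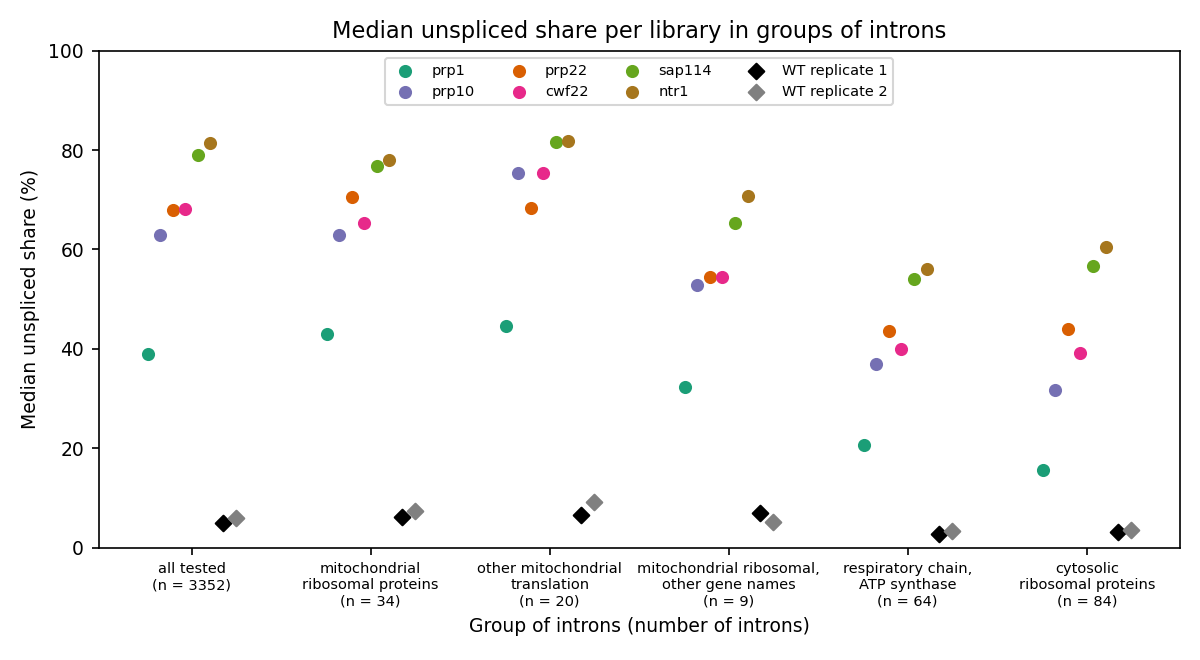
Median unspliced share (%) per library in 6 groups of introns, with 1 point per library and WT as diamonds; the number of introns stands under each group. In the mitochondrial ribosomal protein introns the mutants lie between 43.0 and 77.9% and WT at 6.15 and 7.39%, near the medians of all tested introns, and in the respiratory chain and cytosolic ribosomal protein introns every mutant's median is lower than in the mitochondrial ribosomal protein introns.

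Another 4 groups of introns were set beside these, each described by its counts only. Mitochondrial ribosomal proteins under other gene names, such as img2, nam9 and rml2, gave 9 introns in 8 genes, which all rose, and 1 of them was lower relative to the typical intron (median relative change -1.0). Their mean of library medians was 55.0% ± 13.2 (SD, n = 6) in the mutants and 6.03% in WT. Other genes of mitochondrial translation gave 20 introns in 13 genes, of which 18 rose and 2 were higher and 1 lower relative to the typical intron, with 71.2% ± 13.98 in the mutants and 7.86% in WT. They include elongation factor tuf1, release factor mrf1, peptidyl-tRNA hydrolase pth1 and the membrane insertase oxa101, and cbs2, which the annotation gives as a protein kinase activator. The largest rise was at oxa101 intron 2, from 14.2% ± 4.38 to 87.4% ± 5.20, and the smallest change at pth1 intron 2, with 1.72% ± 2.44 in WT and 16.1% ± 14.7 in the mutants (edgeR adjusted p = 0.0881). The other intron that did not pass was mrf1 intron 2, with 50.8% ± 12.96 in WT and 77.7% ± 12.6 in the mutants (edgeR adjusted p = 0.0745).

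The nuclear genes for respiratory chain and ATP synthase subunits gave 64 introns in 32 genes. Of these 63 rose, with a median share of 41.9% ± 12.9 in the mutants and 3.002% in WT. Relative to the typical intron 15 were lower and 1 higher. The cytosolic ribosomal protein genes gave 84 introns in 73 genes, of which 80 rose, with 41.3% ± 16.5 in the mutants and 3.37% in WT, and 23 were lower relative to the typical intron. The difference between them and the mitochondrial ribosomal protein introns was not tested. Their introns also differ in reads, with a median of 2092 per intron and library in the cytosolic ribosomal protein genes, 487 in the respiratory chain genes and 109 in the mitochondrial ribosomal protein genes. The part of expression level in the difference was not tested.

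Length went with the unspliced share within the 34 introns. How a read was classed as unspliced was not given, so the part of read counting in this relation was not tested. The 7 introns of 100 nt or more had a median WT share of 22.3% and a median mutant share of 88.4%. The 19 introns of 51 to 99 nt had 5.78% and 60.7%, and the 8 introns of 50 nt or less had 3.43% and 63.0%. Over all tested introns the class of 100 nt or more had 12.7% in WT and 79.5% in the mutants. Spearman's rho of length with the mean log2 odds was 0.56 in the mutants and 0.68 in WT over the 34 introns, beside 0.32 and 0.33 over all tested introns. With the change between mutants and WT it was -0.13. These correlations describe introns that share the same libraries, and base composition moved with them, since rho of AT content with the mutant log2 odds was -0.45. The part of AT content was not tested. An exception among the long introns was mrpl25 intron 1, with 5.65% ± 1.65 in WT and 52.9% ± 9.76 in the mutants.

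**Figure D4:**
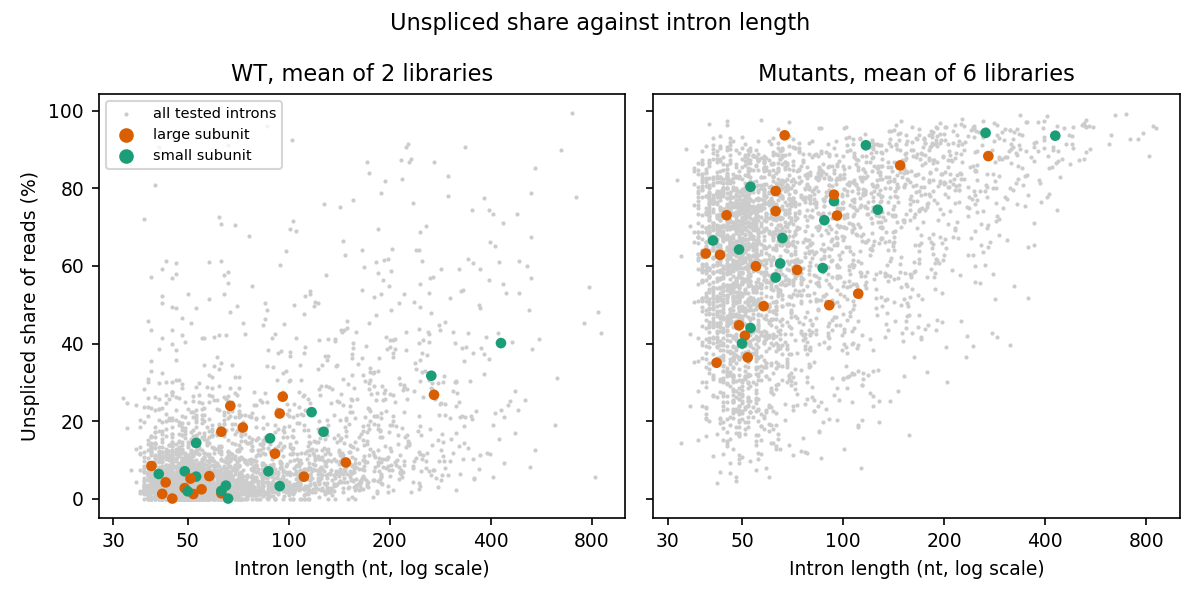
Mean unspliced share (%) against intron length (nt, log scale) in WT (left, 2 libraries) and in the mutants (right, 6 libraries); grey points are all tested introns, orange the large-subunit and green the small-subunit introns. The introns of mrps16, of 429 and 266 nt, lie high in both panels, at 40.1 and 31.7% in WT and 93.6 and 94.4% in the mutants.

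The first and the last intron of a transcript were compared next. In 9 genes there was a first and a last tested intron to compare within the same mutant library, and in 6 the difference passed limma's moderated test with Benjamini-Hochberg adjustment over 874 genes. The first intron was the less retained in 5 of 9 genes, beside 30.3% of all genes compared, and the more retained in 1 of 9, beside 31.7%, so the number of differences was near that of the whole table. In mrpl3 the first intron, of 39 nt, had 63.2% ± 11.2 and the last, of 271 nt, 88.4% ± 7.10 (SD, n = 6), a difference of -2.28 ± 0.223 (SE) in log2 odds with the same sign in all 6 mutants (limma adjusted p = 2.45e-05). Both WT libraries had that sign too, with -3.34 and -1.23. In rsm27 the introns of 65 and 53 nt had 60.7% ± 19.0 and 80.4% ± 13.1, with a difference of -1.65 ± 0.317 in all 6 mutants (limma adjusted p = 0.00131). In mrpl17 the difference between introns 1 and 3 was -1.67 ± 0.461 (limma adjusted p = 0.0102). It was negative in 5 of 6 mutants, with ntr1 the exception at 96.7% and 93.1%. The first intron was also the less retained in mrpl51 (-1.51 ± 0.237) and mrpl38 (-0.86 ± 0.227), in all 6 mutants of each.

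In rsm19 the order was the opposite. Intron 1 had 34.6% in prp1, 47.9% in prp22, 48.7% in prp10, 62.5% in sap114, 74.0% in cwf22 and 74.4% in ntr1. Set against the values of intron 2 given above, the first was higher in 6 of 6 mutants, by 1.07 ± 0.309 in log2 odds (limma adjusted p = 0.0128). The gap was widest in cwf22, at 74.0% against 31.9%, and narrowest in ntr1. In the printed sequences intron 1 of rsm19 has the 5′ splice site GTAAAT and the pentamer CTGAC, and intron 2 has GTATGA and CTAAC. The WT mean was 1.98% at intron 1 and 1.87% at intron 2, and the difference was 0.50 in log2 odds in one WT library and -0.16 in the other. The genes mrpl39, mrps16 and mrp2 did not pass the test.

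**Figure D5:**
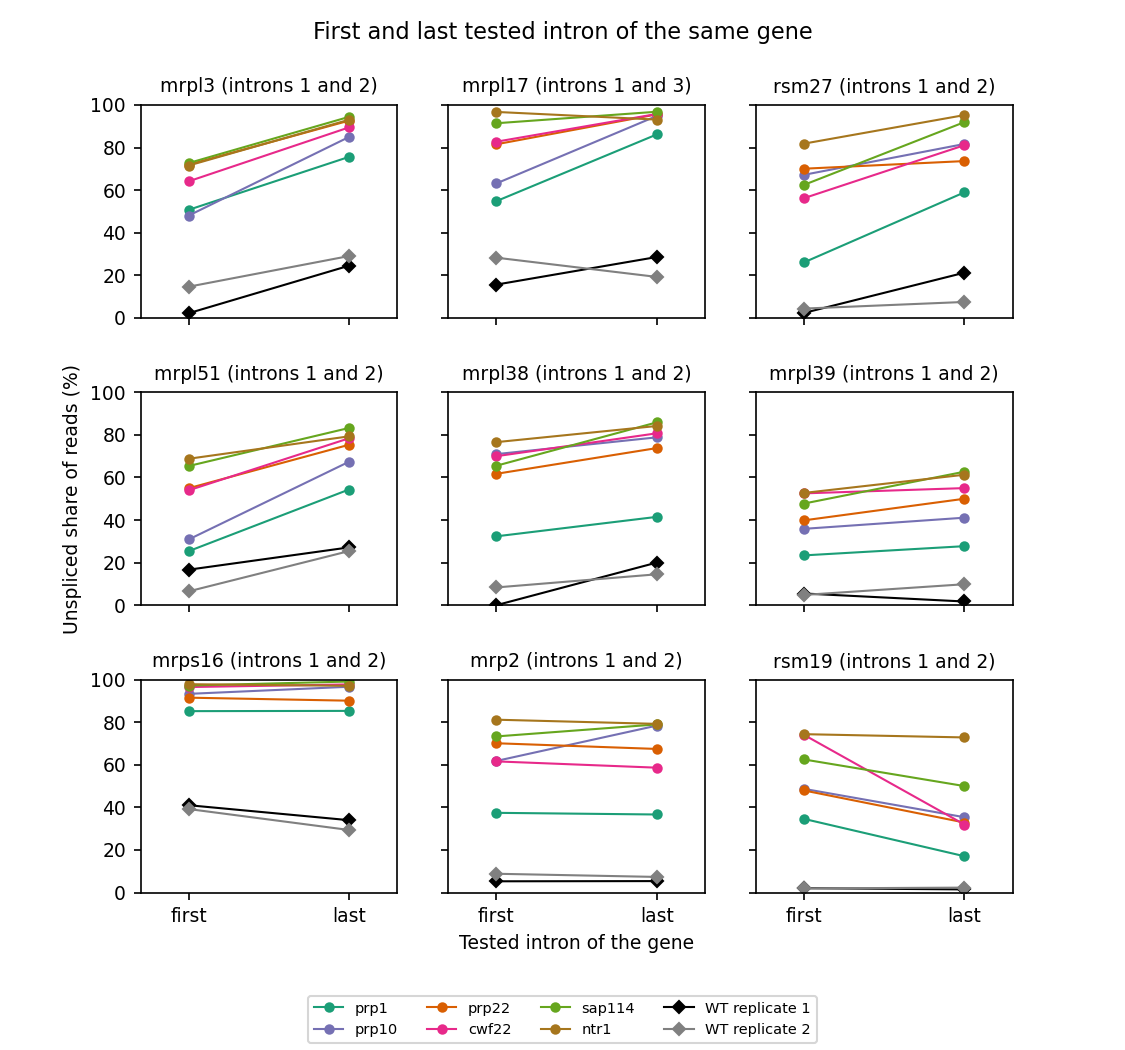
Unspliced share (%) at the first and the last tested intron of the 9 genes with more than 1 tested intron, with 1 line per library and WT as diamonds. In mrpl3, rsm27, mrpl51, mrpl38 and mrpl39 every mutant line climbs from first to last, though mrpl39 did not pass the test. In rsm19 every mutant line falls.

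Retention would change the encoded protein in nearly every case by the reading frame alone. If each intron were kept by itself and translated on from the start codon, 31 of 34 introns (91.2%, beside 85.65% of all tested introns) hold a stop in frame. Only introns in the coding region could count, which are all of the 34 but 97.5% of all tested introns. The background percentage is therefore slightly too low for a like comparison. A stop would come before the middle of the protein in 16 of 34 and within the first 35 residues in 13. With the intron of mrpl23 kept, 8 residues would precede the stop, beside 157 in the protein, and with that of mrp11, 13 beside 216. At 5 introns the residues before the stop would number 90% or more of the protein's length. These counts include residues read from the intron or out of frame. Only intron 1 of mrpl3, of 39 nt, would leave the frame open, adding 13 residues to 326. Its unspliced share was 2.17% and 14.6% in WT and between 48.1% in prp10 and 72.7% in sap114. No protein was measured.

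Total reads at the introns of a gene, spliced and unspliced together, were compared as well. The values are TMM-scaled CPM. Of the 24 genes, 1 was higher in the mutants by edgeR (mrps16, beside 13.6% of all genes) and 4 were lower (mrpl23, mrp11, mrpl39 and rsm19, beside 7.8%). The total of mrps16 was 535 and 514 in WT and 738 in sap114, 750 in ntr1, 827 in prp22, 954 in prp10, 1057 in prp1 and 1161 in cwf22. No mutant overlapped WT, and the change was 0.80 ± 0.189 (SE) in log2 (edgeR adjusted p = 0.0112). The total of mrpl23 was 144 and 141 in WT and between 80.2 in sap114 and 100.3 in prp22, a change of -0.69 ± 0.159 (edgeR adjusted p = 0.0105). The total of mrp11 changed by -0.60 ± 0.191 (edgeR adjusted p = 0.0404).

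The spliced reads alone were scaled by TMM among themselves, so a loss of spliced reads common to the table does not show in their changes. With them 0 of the 24 genes were called by edgeR, beside 2.12% of all genes called higher and 1.38% called lower. At an unadjusted p below 0.05, 2 of the 24 were higher and 2 lower, beside 27.9% of all genes in either direction. On that scale, relative to the other spliced reads, the sign of the changes turned, to -1.20 for mrps16 and to 0.25 for mrpl23. Of the 5 smallest rises in retention, 4 are at introns of the 4 genes with lower totals, and intron 2 of mrps16 had the highest mutant mean share of the 34 introns, at 94.4%. How a read was classed as unspliced was not given in the sources used here. These totals are therefore no measure of RNA level by themselves, and the part of the counting of unspliced reads in them was not tested. With WT replicate 1 or WT replicate 2 left out, 0 of the 24 genes were called higher and 0 lower by edgeR, while the changes of mrps16 were 0.80 and 0.75.

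Splicing to other sites in these genes was rare. The table holds 37 junctions in 16 of the 24 genes that are not annotated introns, 14 of them with an alternative 3′ splice site, 6 with an alternative 5′ splice site, 2 with another pairing of sites and 15 listed as new introns. Their share of the spliced reads in the same genes ran from 0.373% in sap114 to 1.23% in cwf22 in the mutants, and was 0.967% and 1.25% in WT. All mutant shares were below that of WT replicate 2, and 4 of 6 were above that of WT replicate 1, from 4 to 38 reads per library. Only 4 of the 37 junctions had 10 or more reads over all libraries.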

How the data were processed

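The authors deposited whole-number counts of spliced and unspliced reads per junction and library for 14440 junctions, of which 5144 are annotated introns. Per the submitters' processing notes, STAR 2.5, bedtools 2.26 and genome build ASM294v2 were used, and per the labels' protocols the libraries were directional and made from 1 µg of poly(A)-selected RNA. The rule for an unspliced read, the read length, the annotation and any use of strand in counting were not stated in the sources used here. The members and lists were chosen with earlier results of these data known.

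Annotated introns that reached 10 reads in each of the 8 libraries were tested with edgeR 4.0.16 (R 4.3.3): a quasi-likelihood fit of the spliced and unspliced counts with 1 term per library and 1 term for the mutants' change in odds, adjusted by Benjamini-Hochberg over 3352 introns and called below 0.05. A strain against WT used 1 term per group in the same fit. Relative changes used each library's median log2 odds (pseudocount 0.5) as an offset, as did each strain against the other 5. First and last introns were compared with limma 3.58.1, and gene totals with edgeR and TMM. DESeq2 1.42.0, Fisher's exact test, other read minimums and each library left out were alternatives. Intervals are 95% Wilson, and a count of 0 is limited by 3 reads. The edgeR and limma fits were tested on simulated data. Introns named are the 10 largest and 5 smallest rises, the 3 highest in WT, the 3 highest and 3 lowest relative changes, the largest per strain, all of genes with 3 introns, and the 3 extremes of each kind for gene totals and intron pairs, and others are named from counts of 5 or fewer or as examples. Gene names and products come from RefSeq's ASM294v3 annotation, in which 5077 of the annotated introns match at both ends.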

Additional observations from a re-analysis of the deposited data

Results flagged for a closer look

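In the 27 sets of 6 mutant values tested for a value far from the rest, 2 stood out, and chance flags about 1 in 20 such sets. At intron 1 of mrp21, prp1 had 46.1% unspliced reads and the nearest mutant 72.9%, a gap of 0.642 of the range. At intron 3 of mrpl17, prp1 had 86.2% and the nearest mutant 93.1%, a gap of 0.654 of the range. Both values are from prp1, the lowest mutant in 30 of 34 introns.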

How the results depend on the processing

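No paired analysis was possible because each mutant strain had 1 library and WT had 2, so the groups share only the replicate number 1. The rises of the class kept their direction under every alternative run, with 31 called of the 31 introns left at a minimum of 20 reads, 34 with limma, DESeq2 or unspliced counts alone, and 33 to 34 with a library left out. Relative to the typical intron, 2 introns were higher when centred on the mean or with limma, 5 were lower with limma, and with a library left out 0 to 2 were higher and 0 to 2 lower. Strain against the other mutants gave 10 lower calls without centring, all in prp1, and mrp5 intron 1 in prp1 then turned to -0.051. On spliced reads alone, scaled among themselves, 0 gene totals were higher and 0 lower. The change of mrps16 turned to -1.20, that of mrp17 to -0.58, that of mrpl23 to 0.25 and that of mrp11 to 0.32. With a library left out, 0 to 2 gene totals were higher and 0 to 4 lower. The WT share was 12.3% over the summed reads of the introns instead of the median of 6.77%. The cause of these changes was not tested. Of 418 values of single introns and genes under alternatives, 397 kept direction and side of the threshold. Depth limits the low WT shares, since 6 introns had no unspliced read in WT replicate 1 and 3 in WT replicate 2.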
